A study of Homo sapiens with 24 samples.

Results

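Signalling below the interferon and cytokine receptors was described through 9 genes. They were the type I interferon receptor chains IFNAR1 and IFNAR2, the receptor-bound kinases JAK1 and TYK2, the transcription factors STAT2, STAT3, IRF1 and IRF9, and SOCS2, an inhibitor of cytokine receptor signalling. A gene was measured by the probe sets annotated to it alone, and the probe set with the highest mean over 24 arrays stood for it. Of the 9 genes, 8 had such a probe set, among 11963 genes measured in this way, and STAT2 was not analysed here. Testing was limited to genes with a mean of at least 2.85 on the log2 scale, the median of all probe sets, which kept 6782 genes and 6 of these 8. JAK1 and IFNAR1 lay below that limit, so their levels are given with no main test.

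The arrays held RNA of LNCaP, a human prostate cancer line that responds to androgen. All cells were nucleofected, a form of electroporation, with 2.5 µg of plasmid. The plasmid carried one of 3 microRNAs, miR-130a, miR-203 or miR-205, and controls received a scramble plasmid. From each transfection either total RNA was taken, or the RNA that came down with an antibody to AGO2, the Argonaute protein through which microRNAs meet their target transcripts. The 8 groups, AGO2-bound and total RNA after miR-130a, miR-203, miR-205 and scramble, had 3 arrays each, labelled as biological replicates. Separate cultures are not named, so a p-value here speaks of the spread between arrays, which may be technical. All groups thus come from 1 cell line that received plasmid DNA, and the labels give neither the time after nucleofection nor the arm of each microRNA.

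In textbook form, type I interferon binds IFNAR1 and IFNAR2, whose kinases TYK2 and JAK1 phosphorylate STAT proteins, among them STAT2, which works with IRF9 to switch on interferon-stimulated genes. IRF1 is a transcription factor induced by interferon gamma and by RNA sensing, while STAT3 acts mainly below interleukin-6-type receptors. SOCS2 is itself induced by growth hormone and other cytokines and restrains their receptors. In prostate cancer lines the pathway has been studied because LNCaP has been described as lacking JAK1.

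Seeds, bases 2 to 8 of a mature microRNA, decide most of its pairing with AGO2-held transcripts, so mature forms held in the RefSeq table for 2 of the transfected microRNAs are shown with the seed in capitals (GRCh38.p14, both on the plus strand, at chr14:104117469-104117490 and chr1:209432166-209432187). The labels do not name the arm.
hsa-miR-203a-3p: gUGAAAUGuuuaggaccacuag
hsa-miR-205-5p: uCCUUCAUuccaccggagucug
The seeds of these sequences differ, and no target site was searched here.

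The promoters of IRF1 and IRF9 are shown because these members had the largest changes against scramble in AGO2-bound RNA. Both also rose in total RNA after miR-130a and miR-203. Each runs from 250 bases before to 50 bases after the RefSeq start (GRCh38.p14), IRF1 at chr5:132490724-132491023 on the minus strand and IRF9 at chr14:24161015-24161314 on the plus strand, both read 5′ to 3′ along the gene. Capitals mark matches to 2 motifs, the STAT-binding GAS element with the letters TTCNNNGAA and the IRF-binding letters AANNGAAA, searched on both strands.
IRF1: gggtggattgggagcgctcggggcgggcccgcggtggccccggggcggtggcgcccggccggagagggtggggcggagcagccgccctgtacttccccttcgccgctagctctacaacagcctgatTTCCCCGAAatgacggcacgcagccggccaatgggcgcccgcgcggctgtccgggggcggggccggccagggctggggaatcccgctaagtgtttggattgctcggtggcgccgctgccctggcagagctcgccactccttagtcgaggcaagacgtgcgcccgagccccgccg
IRF9: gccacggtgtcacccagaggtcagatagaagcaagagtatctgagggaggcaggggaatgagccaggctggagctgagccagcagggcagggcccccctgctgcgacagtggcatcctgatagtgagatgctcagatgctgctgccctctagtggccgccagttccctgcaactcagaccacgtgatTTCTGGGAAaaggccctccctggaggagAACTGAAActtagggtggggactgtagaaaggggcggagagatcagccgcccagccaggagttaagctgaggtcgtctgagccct
IRF1 held 1 GAS match, from -124 to -116 relative to the start. IRF9 held 1 GAS match, from -63 to -55, and 1 IRF match, from -35 to -28. GAS letters occurred in 7.66% of 35116 human promoters of 300 bases and the IRF letters in 22.8%. The core of the interferon-stimulated response element, GAAA, any 2 bases and GAAA, whose letters contain the IRF letters, occurred in 3.57% of promoters and in none of the promoters of members. Entries were held for 7 of the 9 genes. Among them JAK1 had an IRF match in 2 of its 3 entries, and STAT2, STAT3, TYK2 and IFNAR1 had no match in this window. A match describes letters only.

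On every array the cells carried strong prostate luminal signal: KLK3, the prostate-specific antigen, lay between 10.4 and 13.6 (log2), and 8 of the 9 listed luminal markers were measured, FOLH1 being the weakest at 2.35 to 4.75. Of 11 listed markers of other cells, 9 were measured, and KRT5, PTPRC, CD14, CD3D, COL1A2 and PECAM1 lay at or within 0.05 of the lowest value on every array. KRT14 reached 2.65 and VIM ran from 2.39 to 3.83, both below the limit for testing on average. The mean over these 9 markers lay between 2.47 and 2.73 on each array. COL1A1, at 3.06 to 4.53, was the only one tested, and against scramble it was lower in both kinds of RNA after miR-130a (-0.44 AGO2-bound, -0.53 total) and miR-203 (-0.54 and -0.57) and higher in AGO2-bound RNA after miR-205 (0.52). Of 8 tested luminal markers, 1 was higher and 1 lower for miR-130a, 3 and 3 for miR-203, and 6 and none for miR-205 in AGO2-bound RNA, and in total RNA none, 1 and 3, and 2 and 1. Of all genes 38.5%, 51.4% and 44.0% passed in AGO2-bound RNA and 29.3%, 39.6% and 23.5% in total RNA. In AGO2-bound RNA after miR-205, where 6 markers were higher, 20.4% of all genes were higher. The part of these marker shifts in the members' values was not tested.

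The lowest value took 3 levels, 2.344895 after miR-130a (6 arrays), 2.346843 after miR-203 (6 arrays) and 2.347327 after miR-205 or scramble (12 arrays), and arrays normalised in 1 run would share it. The labels name no such runs. If they existed, run and transfection cannot be told apart for miR-130a and miR-203 against scramble, while miR-205 with scramble, and AGO2-bound with total RNA of 1 transfection, had the same lowest value. As in any bulk sample, fewer cells of a kind and less RNA per cell cannot be told apart.

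Against scramble, the members moved differently after each microRNA. IRF9 and IRF1 were higher after miR-130a, in AGO2-bound as in total RNA, and after miR-203 in total RNA. SOCS2 was lower in both kinds of RNA after miR-203 and higher in both after miR-205. In AGO2-bound RNA after miR-130a, 3 of 6 members passed, all higher, where 38.5% of all genes passed, 18.6% as higher and 19.9% as lower. After miR-203, 2 members were higher and 1 lower, where 51.4% of all genes passed, 22.7% as higher and 28.8% as lower. After miR-205, 1 member was higher, where 44.0% passed, 20.4% as higher and 23.7% as lower. In total RNA after miR-130a, 2 members were higher, where 29.3% of all genes passed, 15.9% as higher and 13.3% as lower. After miR-203, 3 were higher and 2 lower, where 39.6% passed, 19.8% in each direction. After miR-205, 1 was higher, where 23.5% passed, 10.1% as higher and 13.3% as lower. The count of 5 of 6 in total RNA after miR-203 stood above the share of all genes and 1 of 6 in AGO2-bound RNA after miR-205 below it, and the other counts were nearer to it. The median difference of the 6 members was 0.49, 0.53 and 0.02 in AGO2-bound RNA after miR-130a, miR-203 and miR-205, beside -0.05, -0.09 and -0.06 over all genes. In total RNA it was 0.23, 0.17 and 0.11, beside 0.01, 0.01 and -0.01. The members were chosen with earlier results of these data known, so these counts and medians are description only. All calls are limma's with a Benjamini-Hochberg adjusted p under 0.05 over 6782 genes. The 3 comparisons of each kind of RNA share their scramble arrays.

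**Figure D1:**
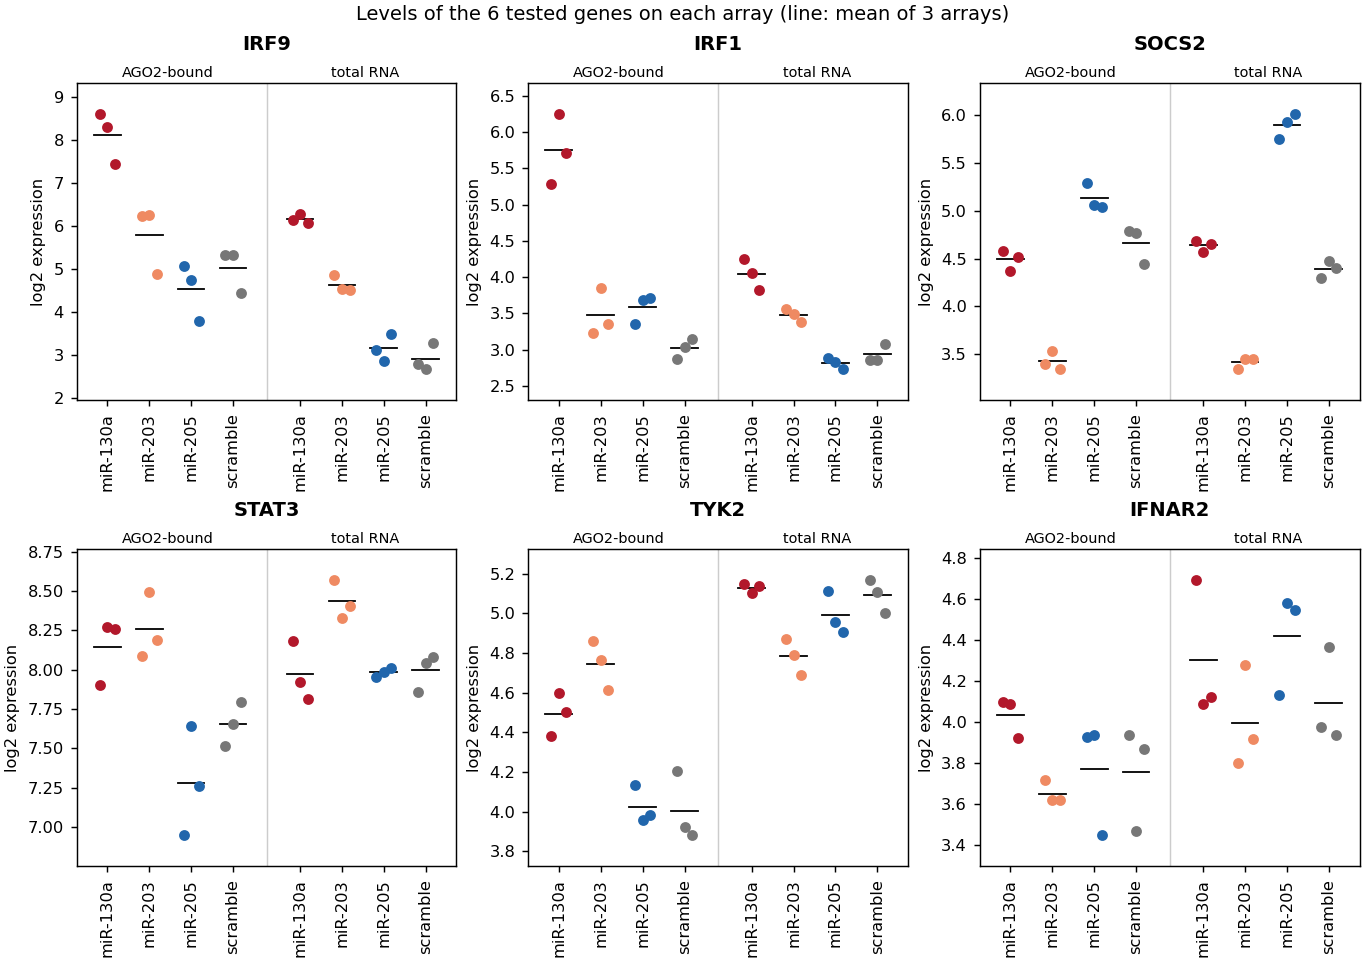
Log2 expression of the 6 tested genes on each array (points), with the mean of 3 arrays as a line, AGO2-bound RNA left and total RNA right of the grey line in each panel, and scramble last. IRF9 was highest after miR-130a in both kinds of RNA, at 7.44 to 8.61 and 6.07 to 6.28, and SOCS2 was lowest after miR-203.

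Among the transcription factors, IRF9, the DNA-binding subunit of the interferon-stimulated gene factor, changed most. Its log2 values in AGO2-bound RNA were 8.61, 8.30 and 7.44 for miR-130a, 6.22, 6.25 and 4.87 for miR-203, 5.07, 4.75 and 3.80 for miR-205, and 5.33, 5.31 and 4.44 for scramble. In total RNA they were 6.13, 6.28 and 6.07 for miR-130a, 4.86, 4.53 and 4.52 for miR-203, 3.11, 2.86 and 3.49 for miR-205, and 2.80, 2.66 and 3.28 for scramble. All miR-130a arrays lay above every other array of their kind of RNA, all total RNA miR-203 arrays lay above those of miR-205 and scramble, and miR-205 and scramble overlapped in both kinds. Relative to scramble, IRF9 rose by 3.25 ± 0.18 (log2, SE) in total RNA after miR-130a (limma, adjusted p = 7.58e-08) and by 3.09 ± 0.42 (8.51-fold) in AGO2-bound RNA (limma, adjusted p = 5.12e-05). After miR-203 it rose by 1.72 ± 0.18 in total RNA (limma, adjusted p = 1.67e-05). The total RNA scramble arrays lay near the lowest value for IRF9, at 2.66 to 3.28, so no fold is given there. The difference in AGO2-bound RNA after miR-203 was 0.75 ± 0.42 (limma, adjusted p = 0.149).

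IRF9 was lowest on replicate 3 in every AGO2-bound group. On the same 4 arrays the mean of 39 spiked-in control probe sets was 7.75 to 8.47, against 6.76 to 7.59 on the other AGO2-bound arrays, and the part of this in the IRF9 values was not tested. Same-numbered AGO2-bound arrays of miR-203 and scramble deviated together, and with the replicate number as a block IRF9 passed after miR-203 (limma, adjusted p = 0.000209). Leaving out AGO2-bound miR-203 replicate 3 gave 1.21 (limma, adjusted p = 0.0221). After miR-205 the differences were -0.49 ± 0.42 in AGO2-bound RNA (limma, adjusted p = 0.382) and 0.24 ± 0.18 in total RNA (limma, adjusted p = 0.369).

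IRF1, an interferon-induced activator of transcription, showed its highest levels after miR-130a too. Log2 values in AGO2-bound RNA were 5.28, 6.25 and 5.71 for miR-130a, 3.23, 3.85 and 3.35 for miR-203, 3.35, 3.69 and 3.71 for miR-205, and 2.87, 3.03 and 3.15 for scramble. Total RNA gave 4.26, 4.05 and 3.82 for miR-130a, 3.57, 3.50 and 3.38 for miR-203, 2.88, 2.83 and 2.73 for miR-205, and 2.86, 2.86 and 3.08 for scramble. The miR-130a arrays stood alone at the top of both kinds of RNA. In AGO2-bound RNA miR-203 and miR-205 overlapped each other and both lay above scramble, and in total RNA only miR-203 did, while miR-205 and scramble overlapped. After miR-130a IRF1 rose by 2.73 ± 0.23 in AGO2-bound RNA (limma, adjusted p = 5.58e-07) and by 1.11 ± 0.11 in total RNA (limma, adjusted p = 2.43e-05). All scramble arrays of both kinds of RNA lay near the lowest value for IRF1, at 2.86 to 3.15, so no fold is given.

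After miR-203 IRF1 rose by 0.55 ± 0.11 in total RNA (limma, adjusted p = 0.00245). Its difference in AGO2-bound RNA was 0.46 ± 0.23 (limma, adjusted p = 0.105), and it passed with the replicate number as a block (limma, adjusted p = 0.0182), which took the members called after miR-203 to 5. In AGO2-bound RNA after miR-205 the difference was 0.57 ± 0.23 (limma, adjusted p = 0.0562), and without AGO2-bound miR-205 replicate 1 it was 0.68 (limma, adjusted p = 0.0431). In total RNA after miR-205 it was -0.12 ± 0.11 (limma, adjusted p = 0.496).

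STAT3, the transcription factor activated by interleukin-6-type cytokines, stood far above the lowest value on every array and differed less between groups. Its chosen probe set, 208991_at, read 7.90, 8.27 and 8.26 in AGO2-bound RNA for miR-130a, 8.09, 8.49 and 8.19 for miR-203, 6.95, 7.64 and 7.26 for miR-205, and 7.51, 7.66 and 7.80 for scramble. In total RNA it read 8.18, 7.92 and 7.81 for miR-130a, 8.57, 8.33 and 8.41 for miR-203, 7.95, 7.99 and 8.01 for miR-205, and 7.86, 8.04 and 8.08 for scramble. The miR-203 arrays of total RNA lay above all other total RNA arrays, whose groups overlapped one another. In AGO2-bound RNA miR-203 and miR-130a overlapped each other and lay above scramble, and scramble overlapped miR-205.

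After miR-203 STAT3 rose by 0.44 ± 0.11 (1.36-fold) in total RNA (limma, adjusted p = 0.00600) and by 0.60 ± 0.18 (1.52-fold) in AGO2-bound RNA (limma, adjusted p = 0.0149). The AGO2-bound call was lost without AGO2-bound miR-203 replicate 2 (0.48, limma, adjusted p = 0.0710) and without AGO2-bound scramble replicate 1 (0.53, limma, adjusted p = 0.0553). The second STAT3 probe set, 208992_s_at, in a fit of each probe set on its own, was higher by 0.46 ± 0.15 in total RNA (limma, adjusted p = 0.0246) and by 0.79 ± 0.14 in AGO2-bound RNA (limma, adjusted p = 0.000435). In AGO2-bound RNA after miR-130a, 208991_at differed by 0.49 ± 0.18 (limma, adjusted p = 0.0513). It passed with the replicate number as a block (limma, adjusted p = 0.00662), for which same-numbered arrays deviated together, and without AGO2-bound miR-130a replicate 1 (0.61, limma, adjusted p = 0.0326). After miR-205 STAT3 differed by -0.37 ± 0.18 in AGO2-bound RNA (limma, adjusted p = 0.120), and by -0.55 without AGO2-bound miR-205 replicate 2 (limma, adjusted p = 0.0324). The total RNA differences were -0.02 ± 0.11 after miR-130a and -0.01 ± 0.11 after miR-205, with 95% intervals of -0.26 to 0.21 and -0.24 to 0.22.

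TYK2, the kinase bound to IFNAR1, showed a different order of groups in each kind of RNA. Log2 values in AGO2-bound RNA were 4.38, 4.60 and 4.50 for miR-130a, 4.86, 4.77 and 4.61 for miR-203, 4.14, 3.96 and 3.99 for miR-205, and 4.21, 3.93 and 3.88 for scramble. Total RNA gave 5.15, 5.10 and 5.14 for miR-130a, 4.87, 4.79 and 4.69 for miR-203, 5.12, 4.96 and 4.90 for miR-205, and 5.17, 5.11 and 5.00 for scramble. Of all groups, miR-203 was the highest group of AGO2-bound RNA and the lowest of total RNA, with no overlap with its neighbour in either, while miR-205 and scramble overlapped in both. TYK2 rose by 0.74 ± 0.14 (1.67-fold) in AGO2-bound RNA after miR-203 (limma, adjusted p = 0.000448) and fell by 0.31 on the log2 scale (SE 0.09) in total RNA (limma, adjusted p = 0.0125). On the AGO2-bound arrays of miR-203 the 3′ minus 5′ difference of GAPDH was 0.60 to 0.89, against 1.23 to 1.57 for scramble, and the 18S probe sets averaged 8.08 to 9.05, against 7.39 to 7.95. The part of these in the AGO2-bound differences of miR-203 was not tested. After miR-130a it rose by 0.49 ± 0.14 (1.41-fold) in AGO2-bound RNA (limma, adjusted p = 0.0111). The total RNA difference after miR-130a was 0.03, with a 95% interval of -0.15 to 0.22. After miR-205 the differences were 0.02 in AGO2-bound RNA and -0.10 in total RNA, with 95% intervals of -0.27 to 0.31 and -0.29 to 0.09.

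JAK1, the kinase bound to IFNAR2, stayed near the lowest value on all arrays, 0.12 to 0.58 above it. Its values in AGO2-bound RNA were 2.71, 2.67 and 2.78 for miR-130a, 2.64, 2.65 and 2.72 for miR-203, 2.65, 2.61 and 2.73 for miR-205, and 2.66, 2.59 and 2.62 for scramble. In total RNA they were 2.93, 2.55 and 2.57 for miR-130a, 2.75, 2.64 and 2.65 for miR-203, 2.66, 2.64 and 2.62 for miR-205, and 2.83, 2.46 and 2.62 for scramble. Neighbouring groups overlapped in both kinds of RNA, and the highest arrays were replicate 1 of total RNA after miR-130a and replicate 1 of total RNA after scramble.

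IFNAR1, the receptor chain that binds TYK2, lay between 0.0083 and 0.64 above the lowest value. AGO2-bound RNA gave 2.36, 2.35 and 2.36 for miR-130a, 2.63, 2.38 and 2.99 for miR-203, 2.40, 2.38 and 2.40 for miR-205, and 2.42, 2.40 and 2.40 for scramble. Total RNA gave 2.44, 2.46 and 2.86 for miR-130a, 2.38, 2.39 and 2.39 for miR-203, 2.56, 2.40 and 2.57 for miR-205, and 2.38, 2.38 and 2.40 for scramble. All AGO2-bound arrays after miR-130a and all total RNA arrays after miR-203 lay within 0.05 of the lowest value. So close to it the groups have no order. The highest arrays were replicate 3 of AGO2-bound RNA after miR-203 and replicate 3 of total RNA after miR-130a. Tested with no limit on low levels, JAK1 and IFNAR1 passed in none of the 16 comparisons (limma, Benjamini-Hochberg). The smallest adjusted p was 0.0534 (limma) for IFNAR1, AGO2-bound against total RNA after miR-203, where total RNA had no measured level. Of the tests of JAK1 and IFNAR1, 2 had an unadjusted p under 0.05.

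**Figure D2:**
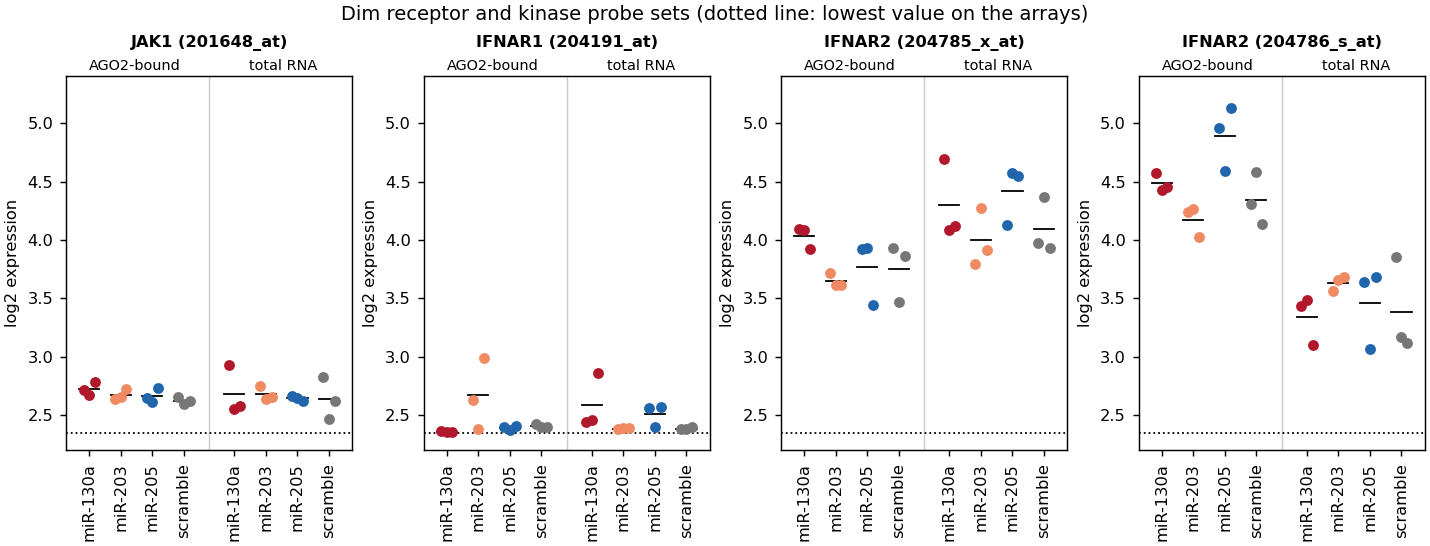
Log2 expression of the dim probe sets of JAK1, IFNAR1 and IFNAR2 on each array (points; line, mean of 3 arrays), AGO2-bound RNA left and total RNA right of the grey line, with the lowest value dotted. JAK1 and IFNAR1 lay within 0.64 of the lowest value, and the 2 IFNAR2 probe sets had group means of opposite order between AGO2-bound and total RNA.

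IFNAR2, the high-affinity interferon-binding chain, was measured above the limit by 2 probe sets that did not give the same picture. The chosen one, 204785_x_at, read 4.09, 4.09 and 3.92 in AGO2-bound RNA for miR-130a, 3.71, 3.62 and 3.62 for miR-203, 3.93, 3.93 and 3.44 for miR-205, and 3.93, 3.47 and 3.87 for scramble. In total RNA it read 4.69, 4.09 and 4.12 for miR-130a, 3.80, 4.28 and 3.91 for miR-203, 4.13, 4.58 and 4.54 for miR-205, and 3.98, 4.36 and 3.93 for scramble. Neighbours in the order of group means overlapped throughout, and none of the 6 differences from scramble passed. They ran from -0.11 in AGO2-bound RNA after miR-203 (95% interval -0.46 to 0.25) to 0.33 in total RNA after miR-205 (95% interval -0.09 to 0.74).

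The other IFNAR2 probe set, 204786_s_at, read 4.57, 4.43 and 4.45 in AGO2-bound RNA for miR-130a, 4.24, 4.26 and 4.02 for miR-203, 4.96, 4.59 and 5.13 for miR-205, and 4.31, 4.58 and 4.13 for scramble. In total RNA it read 3.44, 3.49 and 3.10 for miR-130a, 3.56, 3.66 and 3.68 for miR-203, 3.64, 3.07 and 3.68 for miR-205, and 3.85, 3.17 and 3.12 for scramble. All AGO2-bound arrays lay above all total RNA arrays for this probe set, whereas the first had a lower mean in AGO2-bound RNA after every transfection. AGO2-bound minus total RNA was 1.14 ± 0.19 after miR-130a, 0.54 ± 0.19 after miR-203, 1.43 ± 0.19 after miR-205 and 0.96 ± 0.19 after scramble, and all 4 passed (limma, adjusted p at most 0.0130). The suffix _x_at marks probe sets that may also match other transcripts and _s_at those shared by several transcripts, so the level of IFNAR2 is uncertain. In AGO2-bound RNA after miR-205, 204786_s_at differed from scramble by 0.55 ± 0.16 (limma, adjusted p = 0.0154).

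SOCS2, a member of the cytokine-induced inhibitor family, had a separate level after each transfection in total RNA. Log2 values in AGO2-bound RNA were 4.58, 4.37 and 4.52 for miR-130a, 3.40, 3.54 and 3.35 for miR-203, 5.29, 5.06 and 5.04 for miR-205, and 4.78, 4.77 and 4.45 for scramble. In total RNA they were 4.69, 4.57 and 4.65 for miR-130a, 3.35, 3.45 and 3.45 for miR-203, 5.75, 5.92 and 6.01 for miR-205, and 4.30, 4.48 and 4.40 for scramble. In total RNA none of the 4 groups overlapped a neighbour, with miR-205 on top, then miR-130a, scramble and miR-203. In AGO2-bound RNA the same groups were at the ends, and only scramble and miR-130a overlapped.

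SOCS2 rose by 1.50 ± 0.09 (2.83-fold) in total RNA after miR-205 (limma, adjusted p = 7.65e-07). In AGO2-bound RNA of the same transfection it rose by 0.46 ± 0.14 (1.38-fold) (limma, adjusted p = 0.0150). That call was lost without AGO2-bound miR-205 replicate 1 (0.38, limma, adjusted p = 0.0602) and without AGO2-bound scramble replicate 3 (0.35, limma, adjusted p = 0.0697). After miR-203 SOCS2 fell by 0.97 on the log2 scale (SE 0.09, 1.96-fold) in total RNA (limma, adjusted p = 6.00e-06) and fell by 1.24 (SE 0.14, 2.36-fold) in AGO2-bound RNA (limma, adjusted p = 7.20e-06). After miR-130a the differences were 0.24 ± 0.09 in total RNA (limma, adjusted p = 0.0532) and -0.18 ± 0.14 in AGO2-bound RNA (limma, adjusted p = 0.350). The second SOCS2 probe set, 203372_s_at, lay below the limit for testing, with group means of 3.33 in total RNA after miR-205 and 2.45 to 2.68 in the other 7 groups.

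**Figure D3:**
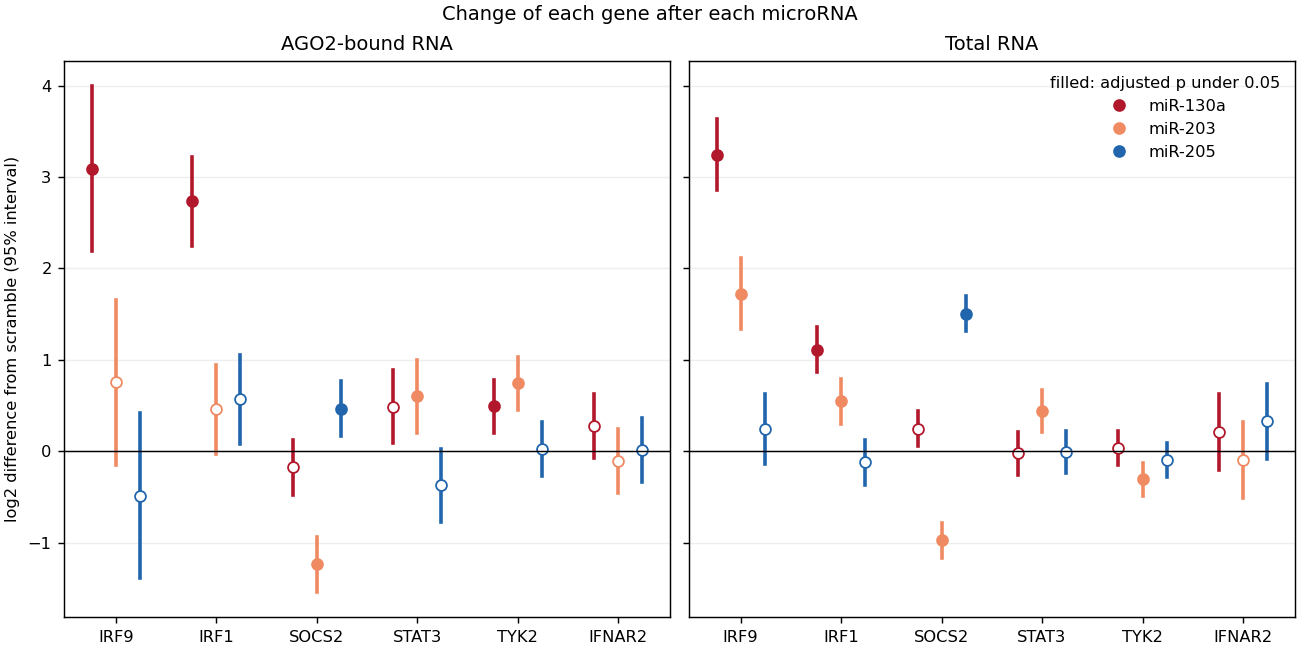
Log2 difference from scramble (points) with its 95% interval (bars) for the 6 tested genes in AGO2-bound RNA, left, and total RNA, right, filled where limma's adjusted p was under 0.05. IRF9 and IRF1 stand highest after miR-130a, and SOCS2 is below 0 after miR-203 and above 0 after miR-205 in both kinds of RNA.

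Set against each other in total RNA, all 3 pairs of microRNAs differed in IRF9, IRF1 and SOCS2. Between miR-130a and miR-203, 4 of 6 members were higher and 1 lower, where 45.2% of all genes passed, 23.8% as higher and 21.4% as lower. IRF9 was higher after miR-130a by 1.52 ± 0.18, SOCS2 by 1.22 ± 0.09, IRF1 by 0.56 ± 0.11 and TYK2 by 0.34 ± 0.09, and STAT3 fell by 0.46 (limma, adjusted p between 8.36e-07 and 0.00588). Between miR-130a and miR-205, 2 were higher and 1 lower, where 38.8% of all genes passed, 21.9% as higher and 16.9% as lower. IRF9 at 3.01 ± 0.18 and IRF1 at 1.23 ± 0.11 were higher and SOCS2 at -1.26 ± 0.09 was lower (limma, adjusted p at most 5.62e-06). Between miR-203 and miR-205, 3 were higher and 1 lower, where 41.8% of all genes passed, 23.2% as higher and 18.6% as lower. SOCS2 differed by -2.48 ± 0.09, a 5.56-fold lower level after miR-203 (limma, adjusted p = 1.15e-09), and IRF9, IRF1 and STAT3 were higher by 1.48, 0.67 and 0.45. Total RNA miR-205 arrays lay near the lowest value for IRF1 (2.73 to 2.88) and IRF9 (2.86 to 3.49). The differences of IRF1 and IRF9 from miR-205 are therefore uncertain in size. These 3 comparisons are between arrays with different lowest values. In the last of them TYK2, at -0.21, passed without total RNA miR-203 replicate 1 (-0.25, limma, adjusted p = 0.0496). IFNAR2, at -0.42, passed without total RNA miR-203 replicate 2 (limma, adjusted p = 0.0494) and without total RNA miR-205 replicate 1 (limma, adjusted p = 0.0471).

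Which transcripts were held by AGO2 was asked by setting AGO2-bound against total RNA of the same transfection. IRF9 was higher in AGO2-bound RNA after all 4 transfections, by 1.96 ± 0.34 after miR-130a, 1.15 ± 0.34 after miR-203, 1.39 ± 0.34 after miR-205 and 2.11 ± 0.34 after scramble (limma, adjusted p at most 0.00444). TYK2 was lower in AGO2-bound RNA after miR-130a, miR-205 and scramble, at -0.63 ± 0.11, -0.97 ± 0.11 and -1.09 ± 0.11 (limma, adjusted p at most 2.48e-05), and differed by -0.04 ± 0.11 after miR-203 (limma, adjusted p = 0.792). IRF1 was higher after miR-130a, by 1.71 ± 0.19 (limma, adjusted p = 1.54e-08), and after miR-205, by 0.77 ± 0.19 (limma, adjusted p = 0.000706). After miR-203 and scramble IRF1 differed by -0.01 and 0.08, with 95% intervals of -0.39 to 0.38 and -0.30 to 0.47. Scramble arrays of both kinds of RNA lay near the lowest value for IRF1, at 2.86 to 3.15, and total RNA after miR-205 did at 2.73 to 2.88. For IRF9 the total RNA arrays of scramble, at 2.66 to 3.28, and of miR-205, at 2.86 to 3.49, lay near it too. Differences that involve these groups are uncertain in size.

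Of the 6 members, 2 were higher and 1 lower after miR-130a, 1 higher after miR-203, 2 higher and 4 lower after miR-205, and 2 higher and 1 lower after scramble. Of all genes 71.6% passed after miR-130a (33.3% higher, 38.3% lower), 71.9% after miR-203 (34.7% higher, 37.2% lower), 72.7% after miR-205 (36.6% higher, 36.1% lower) and 72.9% after scramble (35.1% higher, 37.8% lower), so that most genes passed between these kinds of RNA. Control probe sets of the array differed with the kind of RNA too. The 18S control probe sets averaged 7.35 to 9.05 on AGO2-bound arrays and 2.83 to 4.33 on total RNA arrays, the spiked-in controls 6.76 to 8.47 and 6.26 to 6.66, and the 3′ minus 5′ difference of ACTB 2.22 to 3.94 and 2.00 to 2.44. Their part in these differences was not tested.

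After miR-205 STAT3 was lower in AGO2-bound RNA at -0.70 ± 0.16, SOCS2 at -0.77 ± 0.12 and IFNAR2 (204785_x_at) at -0.65 ± 0.18 (limma, adjusted p at most 0.00259). After scramble SOCS2 was higher by 0.27 ± 0.12 (limma, adjusted p = 0.0398), although its arrays overlapped. That call was lost without AGO2-bound scramble replicate 1 (0.21), AGO2-bound scramble replicate 2 (0.22), total RNA scramble replicate 1 (0.23) or total RNA scramble replicate 3 (0.28), with adjusted p between 0.0698 and 0.148 (limma). With each array centred on its median it was 0.14 (limma, adjusted p = 0.283). STAT3 differed by -0.34 ± 0.16 after scramble (limma, adjusted p = 0.0534) and passed without AGO2-bound scramble replicate 3 or total RNA scramble replicate 1 (both -0.41, limma, adjusted p 0.0389 and 0.0419). STAT3 also passed there with centred arrays (-0.47, limma, adjusted p = 0.00854) and the mean of its probe sets (-0.69, limma, adjusted p = 6.14e-05). Quantile normalisation and a trend and robust spread brought it just under the threshold (limma, adjusted p = 0.0451 and 0.0463). Its second probe set, 208992_s_at, was lower in AGO2-bound RNA after all 4 transfections, at -0.42 ± 0.15 after miR-130a, -0.72 ± 0.15 after miR-203, -0.99 ± 0.15 after miR-205 and -1.04 ± 0.15 after scramble (limma, adjusted p at most 0.0122).

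**Figure D4:**
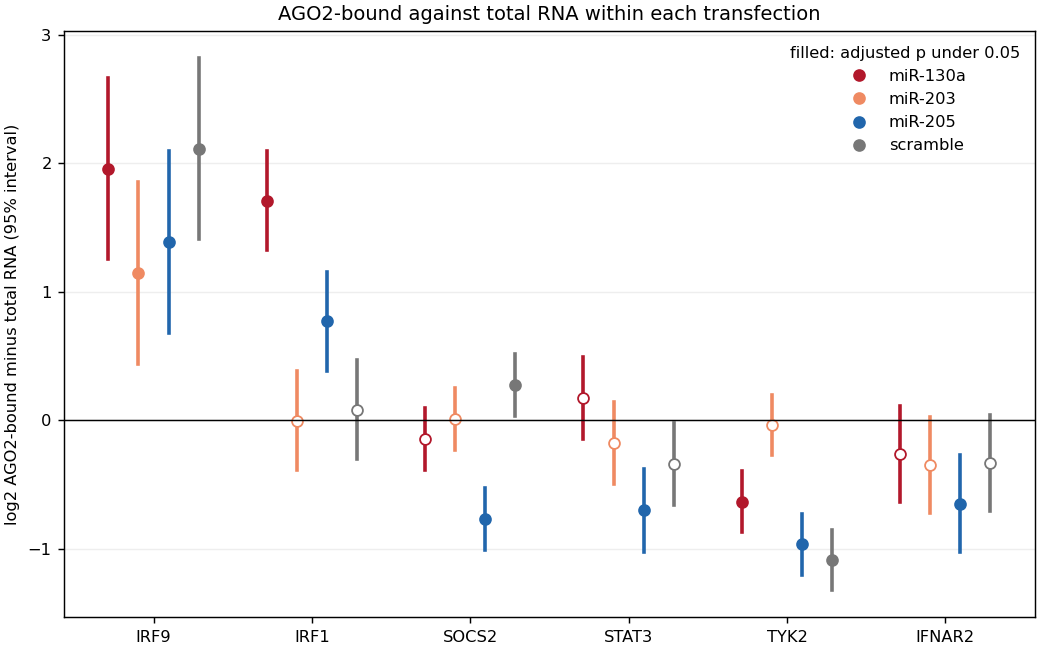
Log2 AGO2-bound minus total RNA within each transfection (points) with its 95% interval (bars) for the 6 tested genes, filled where limma's adjusted p was under 0.05. IRF9 is above 0 after every transfection, TYK2 below 0 after all but miR-203, and IRF1 above 0 after miR-130a and miR-205.

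The series was made to find direct targets, so it was tested whether the change in AGO2-bound RNA went beyond the change in total RNA. For miR-130a 2 of 6 members passed as higher, where 34.5% of all genes passed, 16.2% as higher and 18.4% as lower. These were IRF1 at 1.62 ± 0.26 (limma, adjusted p = 2.80e-05) and TYK2 at 0.46 ± 0.16 (limma, adjusted p = 0.0301). The scramble arrays of both kinds of RNA lay near the lowest value for IRF1, at 2.86 to 3.15, so its reference difference is uncertain. The TYK2 call was lost without AGO2-bound miR-130a replicate 2, total RNA miR-130a replicate 2, AGO2-bound scramble replicates 2 or 3, or total RNA scramble replicates 1 or 2 (0.39 to 0.45, limma, adjusted p 0.0536 to 0.0766). STAT3, at 0.51 ± 0.22, and SOCS2, at -0.42 ± 0.17, did not pass (limma, adjusted p = 0.0751 and 0.0515). Without AGO2-bound miR-130a replicate 1 both passed (0.63 and -0.46, limma, adjusted p = 0.0326 and 0.0448), STAT3 also without total RNA miR-130a replicate 1 (0.62) and SOCS2 also without AGO2-bound scramble replicate 3 (-0.53) or total RNA scramble replicate 2 (-0.46). With the replicate number as a block both passed (limma, adjusted p = 0.0230 and 0.0322). The second STAT3 probe set, 208992_s_at, gave 0.62 ± 0.21 (limma, adjusted p = 0.0230). IRF9 was at -0.16 ± 0.48, with a 95% interval of -1.15 to 0.84. Its total RNA scramble arrays lay near the lowest value, so its reference difference is uncertain too.

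For miR-203 1 member passed as higher, where 49.1% of all genes passed, 22.1% as higher and 27.0% as lower. This was TYK2 at 1.05 ± 0.16 (limma, adjusted p = 7.67e-06). IRF9 was at -0.97 ± 0.48 (limma, adjusted p = 0.102), and at -1.26 without AGO2-bound scramble replicate 3 (limma, adjusted p = 0.0373). With the replicate number as a block IRF9 passed as lower (limma, adjusted p = 0.000721). The total RNA scramble arrays lay near the lowest value for IRF9, so the size of its difference is uncertain.

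For miR-205 1 member was higher and 1 lower, where 42.8% of all genes passed, 21.1% as higher and 21.7% as lower. SOCS2 was at -1.04 ± 0.17 (limma, adjusted p = 1.61e-05): it rose less in AGO2-bound than in total RNA. IRF1 was at 0.69 ± 0.26 (limma, adjusted p = 0.0383), a call lost without AGO2-bound miR-205 replicates 2 or 3, any of the 3 total RNA miR-205 replicates, AGO2-bound scramble replicates 1 or 2, or total RNA scramble replicate 3 (0.61 to 0.72, limma, adjusted p 0.0500 to 0.0905). For IRF1 all scramble arrays and the total RNA miR-205 arrays lay near the lowest value. STAT3 was at -0.36 ± 0.22, and at -0.54 without AGO2-bound miR-205 replicate 2 (limma, adjusted p = 0.0450).

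The rest of the pathway was described through 38 other genes of JAK-STAT and interferon signalling, of which 34 were on the array and 23 were tested. In total RNA after miR-130a, 10 of 23 passed as higher and none as lower, with a median of 0.30, beside a median of 0.01 over all genes and 15.9% of all genes higher. After miR-203, 11 were higher and 1 lower, with a median of 0.30 beside 0.01 over all genes, of which 19.8% were higher. After miR-205, 3 were higher and 1 lower, with a median of 0.07 beside -0.01 over all genes, of which 10.1% were higher. In AGO2-bound RNA 7 were higher and 4 lower for miR-130a, 6 and 4 for miR-203, and 3 and 7 for miR-205. Of all genes 38.5%, 51.4% and 44.0% passed in these comparisons, and 18.6%, 22.7% and 20.4% were higher. The medians there were 0.21, -0.11 and -0.15, beside -0.05, -0.09 and -0.06 over all genes.

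The 3 genes that changed by at least 2-fold in total RNA did so after miR-130a. USP18, the protease that removes ISG15 and restrains IFNAR2, rose by 1.86 ± 0.13 (limma, adjusted p = 1.06e-06). IRF7, which amplifies interferon genes, rose by 1.52 ± 0.23 (limma, adjusted p = 0.000405), and JAK2, the kinase of the growth hormone and interferon gamma receptors, rose by 1.52 ± 0.32 (limma, adjusted p = 0.00385). USP18 rose in AGO2-bound RNA too, by 1.64 ± 0.16 (limma, adjusted p = 2.25e-06).

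AGO2-bound RNA named other genes at this size. SOCS1, an inhibitor that binds JAK kinases, rose by 1.52 ± 0.23 after miR-130a (limma, adjusted p = 0.000153) and fell by 1.44 after miR-205 (SE 0.23, limma, adjusted p = 0.000198). PIAS3, an inhibitor of STAT3, rose by 1.22 ± 0.15 after miR-130a and by 1.20 ± 0.15 after miR-203 (limma, adjusted p at most 2.88e-05). IRF3, the factor that starts interferon beta transcription, rose by 1.20 ± 0.14 after miR-203 (limma, adjusted p = 1.26e-05), and PTPN6, a phosphatase of receptor complexes, by 1.04 ± 0.16 (limma, adjusted p = 0.000133). IFNGR1, the ligand-binding interferon gamma receptor chain, fell by 1.10 in AGO2-bound RNA after miR-130a (SE 0.31, limma, adjusted p = 0.0127) while it rose by 0.84 ± 0.12 in total RNA (limma, adjusted p = 0.000379).

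**Figure D5:**
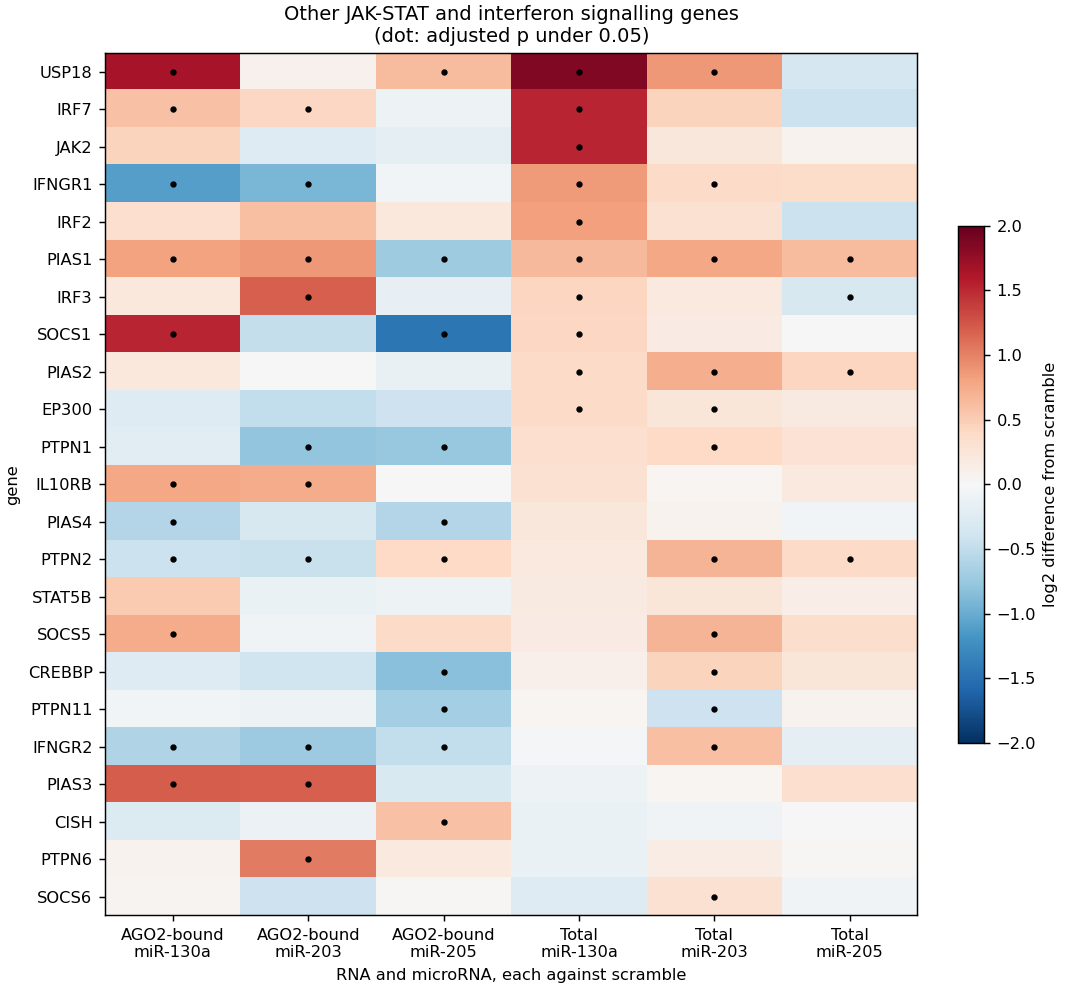
Log2 difference from scramble (colour; red higher, blue lower) of the 23 tested other genes of JAK-STAT and interferon signalling, AGO2-bound RNA in the left and total RNA in the right columns, with a dot where limma's adjusted p was under 0.05. Total RNA after miR-130a and miR-203 holds 10 and 11 higher calls, where 15.9% and 19.8% of all genes were higher.

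Among ligands, 20 interferon genes were listed, 14 were on the array and 1 was tested. This was IFNB1, interferon beta, whose group means lay above the limit for testing only after miR-130a, so those groups decided that it was tested. Its mean in AGO2-bound RNA was 7.37 after miR-130a. After miR-203 (mean 2.37), miR-205 and scramble all arrays lay within 0.05 of the lowest value, so any fold would be a lower bound. In total RNA IFNB1 averaged 5.43 after miR-130a and 2.64 after miR-203, with miR-205 and scramble again within 0.05 of the lowest value. Of 49 interferon-stimulated genes, 48 were on the array and 35 were tested. The mean that decided testing included the miR-130a and miR-203 groups, so the limit favoured genes high there. Of the 48, 13 lay within 0.05 of the lowest value on all total RNA scramble arrays, and 2 on all those of miR-130a. In total RNA 33 of 35 passed as higher after miR-130a (median 2.64), 29 after miR-203 (median 1.13), and 3 as higher and 3 as lower after miR-205 (median 0.02). Of all genes 15.9%, 19.8% and 10.1% were higher there, and 13.3%, 19.8% and 13.3% lower. IFIT1, a well-known member that binds viral RNA, rose by 6.93 ± 0.09 after miR-130a (limma, adjusted p = 2.37e-14) and by 5.17 ± 0.09 after miR-203 (limma, adjusted p = 2.41e-12). In AGO2-bound RNA 29 passed as higher and 1 as lower after miR-130a (median 2.46), 17 and 3 after miR-203 (median 0.61), and 3 and 6 after miR-205 (median -0.22). There 18.6%, 22.7% and 20.4% of all genes were higher, and 19.9%, 28.8% and 23.7% lower.

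Upstream of STAT3 and SOCS2, 18 cytokine, growth hormone and growth factor signalling genes were listed, 17 were on the array and 8 were tested. In total RNA 4 were higher and 1 lower for miR-130a, 4 and 1 for miR-203, and 3 and none for miR-205, where 29.3%, 39.6% and 23.5% of all genes passed. In AGO2-bound RNA 2 were higher and 3 lower for miR-130a, 1 and 4 for miR-203, and none and 2 for miR-205, where 38.5%, 51.4% and 44.0% passed. GHR, the growth hormone receptor, rose by 1.69 ± 0.15 after miR-205 (limma, adjusted p = 1.00e-05) and by 1.36 ± 0.15 after miR-130a (limma, adjusted p = 3.78e-05), and EGFR rose by 1.06 ± 0.23 after miR-205 (limma, adjusted p = 0.00518). In AGO2-bound RNA GHR fell by 1.70 after miR-130a (limma, adjusted p = 0.000370) and by 1.45 after miR-203 (limma, adjusted p = 0.000935). EPOR, the erythropoietin receptor, fell there by 1.36 after miR-130a and by 1.04 after miR-205 (limma, adjusted p at most 0.000409). After miR-203 IGF1R fell by 1.50 and IL6ST, the shared receptor chain gp130, rose by 1.46 ± 0.27 (limma, adjusted p at most 0.00100). Of 19 listed STAT3-responsive genes, 17 were on the array and 9 were tested, and in total RNA 2 were higher and 1 lower for miR-130a, 1 and 4 for miR-203, and 2 and 3 for miR-205. In AGO2-bound RNA 1 was higher and 4 lower for miR-130a, none and 3 for miR-203, and 3 and 1 for miR-205. The shares of all genes passing were those given above for each comparison.

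The genes whose levels most resembled a member over the 12 total RNA arrays were found by Pearson correlation, a description over arrays that share 4 transfections. IRF9 was nearest to IFI44 (r = 0.993), RIGI, an RNA sensor (r = 0.988), and the chemokine CCL5 (r = 0.987). IRF1 was nearest to PLA1A (r = 0.980), PLAAT4 (r = 0.977) and KLF4 (r = 0.974). For SOCS2 they were the desmosomal cadherin DSG2 (r = 0.982), the adaptor SHC1 (r = 0.975) and WIPF2 (r = 0.974). STAT3 was nearest to CTPS1, an enzyme of CTP synthesis (r = 0.945), TYK2 to the glyoxalase GLO1 (r = 0.930) and IFNAR2 to the DNA repair factor XPA (r = 0.813).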

How the data were processed

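Affymetrix human expression arrays, each given 2 µg of RNA per the labels' protocols, measured 22277 probe sets in 8 groups of 3. The deposited values are log2 signals that the authors normalised with GCRMA or RMA in R 2.9.0, per the submitters' processing notes, and they were used as deposited. Of the probe sets, 19064 had 1 gene symbol in the platform annotation and 1043 had several. The probe set with the highest mean over 24 arrays stood for its gene, and genes with a mean of at least 2.85 were tested.

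Differences were fitted with limma 3.58.1 in R 4.3.3 (empirical Bayes, Benjamini-Hochberg over 6782 genes, called at an adjusted p under 0.05). MicroRNA against scramble and against microRNA was fitted over the 12 arrays of each kind of RNA, and AGO2-bound against total RNA and the change beyond total RNA over all 24. The steps were tested on simulated data. No arrays were identical. Depth has no counterpart here, and 3 arrays a group limit the precision.

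Same-numbered arrays deviated together, with every correlation of deviations over 0.1, for AGO2-bound miR-130a and scramble (0.11 to 0.52) and miR-203 and scramble (0.16 to 0.58). For these, and for the changes beyond total RNA built on them, the block is given where it changes a call.

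The members, gene lists and motifs were chosen with earlier results of these data known. Named genes of the lists passed with a change of at least 2-fold against scramble, with some exceptions. IFIT1, IFNB1, the total RNA value of IFNGR1 and the cell markers named were chosen after their values were seen. PIAS4 was named for the smallest p of its list in AGO2-bound against total RNA. Likeness was Pearson's r over 12 total RNA arrays. The alternatives were no filter on dim probe sets, the mean of all probe sets of a gene, centring each array on its median, quantile normalisation, a trend and robust spread, the replicate number as a block, all 24 arrays in 1 fit, each array left out, and, chosen after seeing the data, each probe set fitted on its own over 11139 probe sets.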

Additional observations from a re-analysis of the deposited data

Results flagged for a closer look

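In 5 results the change in AGO2-bound RNA differed from the change in total RNA of the same transfection, by the test of that difference in limma. For miR-130a the difference was 1.62 for IRF1 and 0.46 for TYK2, for miR-203 it was 1.05 for TYK2, and for miR-205 it was 0.69 for IRF1 and -1.04 for SOCS2 (log2). IRF1 rose in both kinds of RNA after miR-130a, by more in AGO2-bound RNA. Its scramble arrays of both kinds of RNA, and its total RNA arrays after miR-205, lay near the lowest value, so these IRF1 differences are uncertain in size. TYK2 rose in AGO2-bound RNA after miR-203 while it fell in total RNA. The TYK2 value of miR-130a passed in 6 of 12 fits that left out 1 array, and the IRF1 value of miR-205 in 4 of 12. The arrays of miR-130a and of miR-203 have a lowest value other than that of scramble, and those of miR-205 share it.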

How the results depend on the processing

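Of 96 tests of members 45 passed, and 39 of these passed under every alternative counted. The fit of each probe set on its own was not among those counted. Of 1314 values under alternatives, 1236 kept direction and side of the threshold, 29 lost the call, 46 gained one and 3 reversed. The reversed ones were IFNAR2 in AGO2-bound against total RNA with the mean of its probe sets, at 0.44 after miR-130a, 0.39 after miR-205 and 0.31 after scramble, where the second probe set has the opposite sign.

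With the replicate number as a block, 5 members passed in AGO2-bound RNA after miR-203, 4 after miR-205, and 4 of the changes beyond total RNA for miR-130a and 2 for miR-203. It changed the number of members called by no more than 1 in the other comparisons. For AGO2-bound miR-205 and scramble 1 of 3 correlations of same-numbered arrays was -0.04, so the number was not taken as a pairing there. With the block IRF1, STAT3 and IRF9 passed in that comparison (0.57, -0.37 and -0.49, limma, adjusted p = 0.00596, 0.0260 and 0.00645), and IRF9 in its change beyond total RNA (-0.73, limma, adjusted p = 0.00846). For IRF9 the total RNA arrays of miR-205 and scramble lay near the lowest value, so that -0.73 is uncertain in size. STAT3 also passed in AGO2-bound against total RNA after scramble (-0.34, limma, adjusted p = 0.0171). With all 24 arrays in 1 fit, 3 members passed for miR-205 in AGO2-bound RNA, and 1202 genes against 1984 passed in total RNA after miR-130a and 980 against 1591 after miR-205. Of AGO2-bound against total RNA after miR-203, 2 members passed with the mean of probe sets and 2 with centred arrays. Of the changes beyond total RNA, 1 passed for miR-130a with a trend and robust spread, and 1 for miR-205 with no filter or with centred arrays. Leaving out 1 array gave 0 to 2 members for AGO2-bound miR-205, and 1 to 4, 1 to 2 and 1 to 2 of the changes beyond total RNA for miR-130a, miR-203 and miR-205. SOCS2 in AGO2-bound RNA after miR-205 also lost its call with the mean of its probe sets (0.33, limma, adjusted p = 0.0504). The cause of these shifts was not tested.

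Centring turned the calls in total RNA after miR-130a from more higher to more lower, 872 higher and 1217 lower against 1081 and 903 as reported, and quantile normalisation gave 906 and 1142. For total RNA of miR-130a against miR-205 centring gave 1163 and 1680, against 1488 and 1145. It moved the median of all genes by -0.17 and -0.13 in AGO2-bound against total RNA after miR-205 and scramble. Low signal limits JAK1 and IFNAR1, which cannot be ordered near the lowest value.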

Other observations

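Other genes of the pathway differed between AGO2-bound and total RNA as well. Of the 23 tested other genes of JAK-STAT and interferon signalling, more were higher than lower in AGO2-bound RNA in each transfection. The miR-130a arrays gave 13 higher and 8 lower, miR-203 12 and 6, miR-205 13 and 6, and scramble 15 and 6. Median differences of these genes were 1.00, 0.54, 0.69 and 0.94, beside -0.08, -0.03, -0.01 and -0.05 over all genes. Of all genes 71.6%, 71.9%, 72.7% and 72.9% passed. Higher were 33.3%, 34.7%, 36.6% and 35.1% of all genes, and lower 38.3%, 37.2%, 36.1% and 37.8%. PIAS4, a SUMO ligase, was higher in AGO2-bound RNA by 2.96 after miR-130a, 3.37 after miR-203, 3.23 after miR-205 and 3.76 after scramble (log2, all called by limma). JAK2 was lower in AGO2-bound RNA, at -2.19, -1.60, -1.39 and -1.11 in the same order, IRF3 at -2.17, -0.93, -1.78 and -1.94, and IRF7 at -2.17, -1.27, -0.90 and -1.24, all called by limma.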
